A study of Mus musculus with 8 samples.

Results

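The 10 genes described here belong to the pyrin and NLRP3 inflammasomes and to the interleukin 1 family, and they were followed in macrophages of the infarcted mouse heart that had been kept in culture with or without interleukin 21 (IL-21). They were taken by symbol from the 53342 genes of each count table, and all 10 of 10 were found: Mefv, Nlrp3, Pycard, Casp1, Casp4, Gsdmd, Il1b, Il1rn, Il18 and Il18bp. The 8 libraries came from wild-type C57BL/6 mice aged 8 weeks, whose cells were sorted 3 days after myocardial infarction by the surface antigen Ly6C and cultured for 24 hours. The 4 groups were Ly6Clo (little Ly6C) with IL-21 at 100 ng/mL, Ly6Clo without IL-21, Ly6Chi (much Ly6C) with IL-21 at that dose, and Ly6Chi without IL-21. Each group held 2 libraries, numbered 1 and 2 in the sample titles. All cells had spent the same time in culture, so the libraries without IL-21 are cultured controls and not cells fresh from the heart. The labels do not say whether equally numbered libraries came from the same animals, nor whether the libraries of a group came from separate ones, so p-values measure spread among these libraries only, and that spread may be technical.

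An inflammasome is a protein platform that senses damage or infection in the cytosol and switches on caspase 1. Sensors such as NLRP3 and pyrin bind the adaptor ASC through pyrin domains, and ASC recruits the caspase. Active caspase 1 cuts the precursors of interleukin 1 beta and interleukin 18 into their secreted forms and cuts gasdermin D, whose fragment opens pores in the plasma membrane. Mouse caspase 4, also called caspase 11, binds bacterial lipopolysaccharide in the cytosol and cuts gasdermin D as well. The cytokines are held back outside the cell by soluble proteins, the interleukin 1 receptor antagonist and the interleukin 18 binding protein. In the infarcted heart this system is known as a driver of early inflammation. RNA counts speak to none of the cutting steps, which act on protein.

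The promoter windows of 3 of the genes are shown because Mefv had the smallest p of the tested genes between the Ly6C subsets without IL-21, Il18bp had the smallest p between the replicate numbers, and Casp4 held the most matches to a motif. They are RefSeq windows of 300 bases on GRCm38.p6, running 5′ to 3′ from 250 bases before to 50 bases after a gene start, at chr16:3718075-3718374 on the minus strand for Mefv, chr7:102018183-102018482 on the minus strand for Il18bp and chr9:5308610-5308909 on the plus strand for Casp4. Capitals mark matches to an NF-kappaB-type motif, and there are none in the first 2 windows.
Mefv: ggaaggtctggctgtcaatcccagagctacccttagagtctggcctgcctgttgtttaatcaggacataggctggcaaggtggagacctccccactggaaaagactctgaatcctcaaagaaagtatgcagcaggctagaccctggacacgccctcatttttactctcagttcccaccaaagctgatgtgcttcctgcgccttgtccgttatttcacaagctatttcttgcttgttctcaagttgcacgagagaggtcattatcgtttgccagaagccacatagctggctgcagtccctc
Il18bp: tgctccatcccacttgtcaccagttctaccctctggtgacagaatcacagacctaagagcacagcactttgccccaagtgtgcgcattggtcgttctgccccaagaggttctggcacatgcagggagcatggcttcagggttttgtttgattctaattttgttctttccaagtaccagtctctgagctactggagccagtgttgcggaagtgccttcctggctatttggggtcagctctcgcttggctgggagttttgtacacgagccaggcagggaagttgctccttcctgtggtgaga
Casp4: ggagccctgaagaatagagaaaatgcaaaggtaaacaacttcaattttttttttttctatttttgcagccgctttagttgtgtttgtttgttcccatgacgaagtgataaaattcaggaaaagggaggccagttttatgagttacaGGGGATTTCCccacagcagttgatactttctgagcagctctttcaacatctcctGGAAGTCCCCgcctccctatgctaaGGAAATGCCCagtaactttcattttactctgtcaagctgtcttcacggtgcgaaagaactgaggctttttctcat
Of the 10 genes, 9 had at least one window in the table, 13 windows in all. On both strands, the STAT-type motif TTCNNNGAA and the interferon-type motif (GAAA, any 2 bases, GAAA) had matches in 0 of these 9 genes, against 9.55% and 3.99% of the 27025 genes of the table. The NF-kappaB-type motif (GGG, any 3 bases, TTCC) had matches in 2 of the 9, against 6.31% of all genes. Casp4 had 3 in the window shown, and Il1rn had 1 in each of its 3 windows, of which 2 overlap and hold the same site. A match is only a run of letters, and a window without one does not show that a factor is not bound.

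Deposited totals were 224329 to 483593 counts per library, so that 3 counts corresponded to 6.58 to 14.9 CPM (counts scaled to the normalised library total). Il1rn had the deepest coverage, with 78 to 542.2 counts per library. Casp1, Pycard, Gsdmd and Il18bp had between 16.8 and 90.3 counts in every library, and Casp4 had 8.2 to 41.7. Mefv had 2 to 21.5 counts and Il18 had 4 to 16, and each was under 10 counts in 3 libraries. Il1b had 40 counts and Nlrp3 had 42 over all 8 libraries, with under 3 counts in 4 and in 3 of them. The filter on low counts kept 9 of the 10 genes and left Nlrp3 out, and at these counts the levels of Il1b and Nlrp3 in a single library rest on a few reads. The reads mark the 3' ends of messenger RNAs, and because a count is not scaled for how each gene is primed, levels are compared between samples and not between genes.

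The sort and the stimulation could be seen in the libraries. The 3 Ly6C-linked markers (Ly6c1, Ly6c2 and Ccr2) summed to 114 to 182 CPM in the Ly6Clo libraries and to 591 to 688 CPM in the Ly6Chi libraries. The separation came from Ly6c1 and Ly6c2, which together had 14.0 to 87.8 CPM in Ly6Clo and 427 to 652 CPM in Ly6Chi. Ccr2 overlapped, and among libraries numbered 1 it was higher in Ly6Clo (168 CPM with IL-21 and 116 CPM without it) than in Ly6Chi (97.9 CPM with IL-21 and 36.9 CPM without it). Of the 8 macrophage markers 7 were found in every library, and Itgam was at 0 in all 8. Socs3, the feedback inhibitor that IL-21 induces through STAT3, rose in Ly6Clo by a log2 fold change of 3.41 (SE 0.46, edgeR adjusted p 0.00714). In Ly6Chi its value was 2.14 (SE 0.40, edgeR adjusted p 0.171) and missed the threshold of 0.05. This and the other tests of many genes used the quasi-likelihood F test of edgeR. Of the 10 neutrophil markers, Mmp8 (537 to 2152 CPM), S100a8 (45.7 to 139 CPM) and Csf3r (20.6 to 42.2 CPM) were found in every library. Retnlg, Ngp, Ltf and Ly6g were at 0 in all 8, and S100a9, Camp and Cxcr2 had 2, 1 and 5.4 counts over all 8. T, B and NK cell lists stayed at or under 14.9 CPM and dendritic cell markers at or under 28.6 CPM. In bulk RNA fewer cells of a type and less RNA per cell cannot be told apart.

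**Figure D1:**
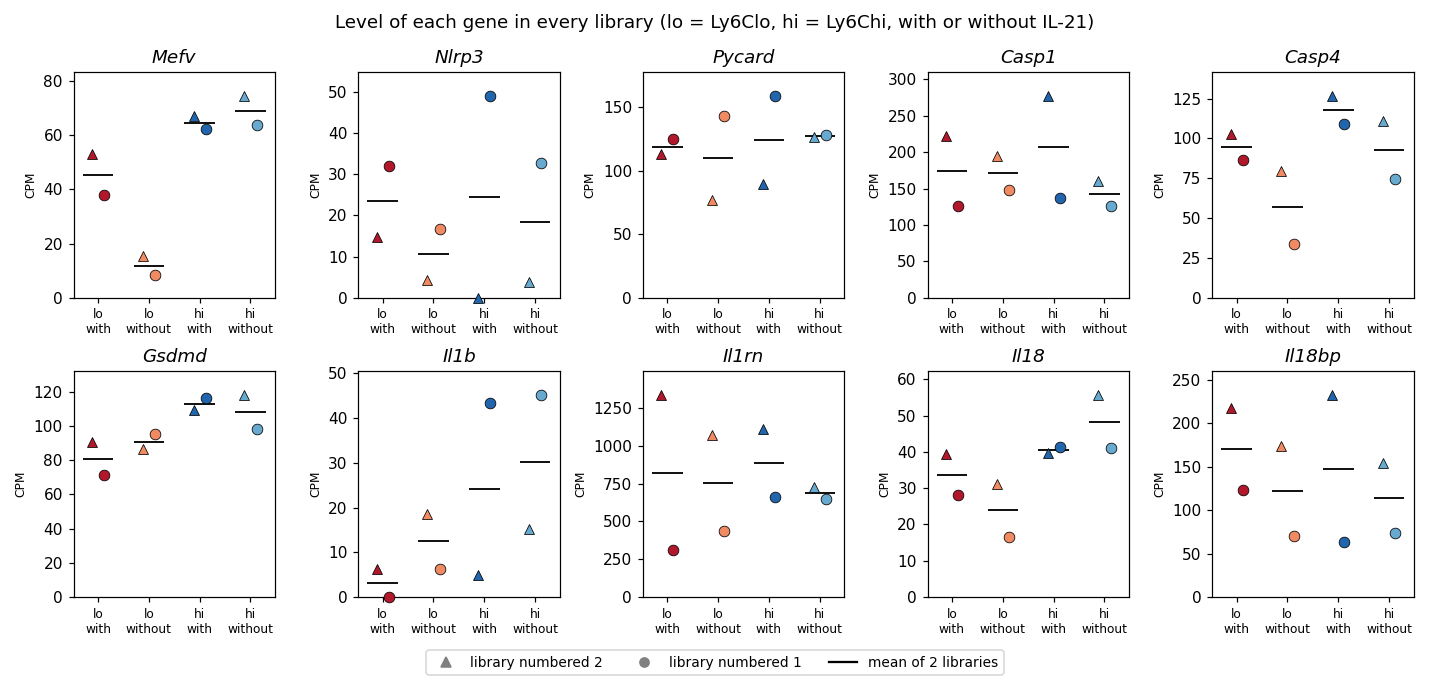
Level of each of the 10 genes in CPM (vertical axis from 0, a scale of its own for each gene) in the 4 groups. Triangles are libraries numbered 2, circles libraries numbered 1 and the bar is the mean of the 2 libraries. Mefv is at 8.30 and 15.4 CPM in Ly6Clo without IL-21 and at 38.0 CPM or more in the other 6 libraries, and the triangles of Il1rn, Casp1 and Il18bp lie above all of the circles.

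Mefv encodes pyrin, the sensor that assembles an inflammasome when bacterial toxins inactivate RhoA and whose human gene is mutated in familial Mediterranean fever. Of the 9 genes tested it had the smallest p between the subsets without IL-21 and averaged over stimulation, but not with IL-21, and the smallest p for IL-21 in Ly6Clo, and its lowest group was Ly6Clo without IL-21. With IL-21, Ly6Clo libraries had 52.9 CPM (number 2) and 38.0 CPM (number 1), while Ly6Clo libraries without IL-21 had 15.4 CPM (number 2) and 8.30 CPM (number 1). The Ly6Chi libraries had 67.03 and 62.1 CPM with IL-21, and 74.4 and 63.5 CPM without it. All 4 Ly6Clo libraries lay below all 4 Ly6Chi libraries, as for 2.74% of the genes tested. Within Ly6Clo the libraries with IL-21 lay above those without it, as for Casp4 and for 14.8% of the genes tested. In counts over the 2 libraries of a group, Ly6Clo had 31 with IL-21 and 9 without it, and Ly6Chi had 30 with IL-21 and 35 without it.

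The level of Mefv without IL-21 was 11.8 ± 4.99 CPM in Ly6Clo and 69.0 ± 7.65 CPM in Ly6Chi (SD, n = 2 each). The log2 fold change of Ly6Clo over Ly6Chi was -2.44 (SE 0.46, 95% interval -3.42 to -1.45), the 4th smallest p of 5256 genes. In the fit of group means it missed the threshold (edgeR adjusted p 0.136). In this comparison 0.0381% of the genes tested passed, all of them lower in Ly6Clo. With IL-21 the levels were 45.4 ± 10.5 CPM in Ly6Clo and 64.6 ± 3.47 CPM in Ly6Chi, a log2 fold change of -0.46 (SE 0.39, interval -1.28 to 0.37), where 0.019% of genes passed. Averaged over both stimulations the value was -1.45 (SE 0.30, interval -2.10 to -0.80, edgeR adjusted p 0.103), against 0.0951% of genes passing as lower. When no filter on low counts was applied, Mefv passed as lower in Ly6Clo both without IL-21 (-2.42, edgeR adjusted p 0.0105, with 0.0732% of 17757 genes passing as lower) and averaged (-1.42, edgeR adjusted p 0.0208, with 0.191%). By DESeq2 it passed neither without IL-21 (-2.50, DESeq2 adjusted p 0.710) nor averaged (-1.49, DESeq2 adjusted p 0.456).

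The response of Mefv to IL-21 was then set out by subset. In Ly6Clo the log2 fold change was 1.84 (SE 0.48, interval 0.82 to 2.86), with an unadjusted p of 0.00167. It missed the threshold after adjustment (edgeR adjusted p 0.627), which 0.133% of genes passed. By number it was 1.43 among Ly6Clo libraries numbered 2 and 1.56 among those numbered 1. In Ly6Chi it was -0.14 (SE 0.38, interval -0.94 to 0.66), with -0.14 among libraries numbered 2 and -0.03 among those numbered 1, and 0.019% of genes passed. Averaged over the subsets it was 0.85 (SE 0.31, edgeR adjusted p 0.781). The difference between these responses, Ly6Clo minus Ly6Chi, was 1.98 (SE 0.61, interval 0.67 to 3.28), the 6th smallest p of all genes, and it did not pass (edgeR adjusted p 1.0). No gene at all passed in that comparison, where 92 genes had an unadjusted p under 0.05 by edgeR and 13 by DESeq2, which also called 0.

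Markers of other cells moved with Mefv in part. The 6 fibroblast markers summed to 104 to 126 CPM in Ly6Clo with IL-21 and 20.8 to 30.7 CPM in Ly6Clo without it, but to 15.8 to 72.0 CPM in Ly6Chi with IL-21 and 67.6 to 156 CPM in Ly6Chi without it. The 5 cardiomyocyte markers summed to 13.6 to 89.9 CPM in Ly6Clo with IL-21 and 0 to 2.19 CPM in Ly6Clo without it, and to 0 to 24.3 and 4.10 to 53.2 CPM in Ly6Chi with and without IL-21. Neutrophil markers, of which 4 of 10 were at 0 throughout, summed to 641 to 1262 CPM in the Ly6Clo libraries and 1403 to 2335 CPM in the Ly6Chi libraries. Most of that sum was Mmp8, and without it the ranges were 66.4 to 137 CPM in Ly6Clo and 113 to 183 CPM in Ly6Chi. Their part in the Mefv values was not tested.

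Nlrp3 encodes the sensor that responds to potassium loss, crystals and other signs of cell damage. It was read mainly in the libraries numbered 1. The libraries numbered 2 had 14.8 CPM in Ly6Clo with IL-21, 4.39 CPM in Ly6Clo without it, 0 CPM in Ly6Chi with IL-21 and 3.81 CPM in Ly6Chi without it. Those numbered 1 had, in the same order of groups, 32.0, 16.6, 48.9 and 32.8 CPM. In counts these are 9 over the 4 libraries numbered 2 and 33 over the 4 numbered 1. The numbers did not overlap in CPM, and 5.1% of the genes tested were likewise lower in number 2 without overlap. In counts they did overlap, with 6 in Ly6Clo with IL-21 number 2 and 4 in Ly6Clo without IL-21 number 1.

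As Nlrp3 was not among the genes kept with all libraries, its values here come from the fit without a filter on low counts. It also entered most fits with 1 library left out, and it was not called between the numbers in those. In the fit without a filter it was lower in the libraries numbered 2, with a log2 fold change of -2.11 (SE 0.53, edgeR adjusted p 0.00563), while 0.912% of 17757 genes passed as lower. Its IL-21 effect in that fit was 1.27 (SE 0.77) in Ly6Clo and 0.56 (SE 0.73) in Ly6Chi. Averaged over the subsets it was 0.92 (SE 0.53), and the averaged difference of Ly6Clo from Ly6Chi was -0.62 (SE 0.53), all with edgeR adjusted p values of 1.0.

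Pycard encodes ASC, the adaptor between the sensors and caspase 1. Its level was 76.6 to 143 CPM in Ly6Clo and 89.4 to 159 CPM in Ly6Chi, and the subsets overlapped. The averaged IL-21 effect was 0.09 (SE 0.25, interval -0.45 to 0.62). Ly6Clo against Ly6Chi gave -0.18 (SE 0.25, interval -0.72 to 0.35). Pycard shares 485 exon bases with Gm45205 on the opposite strand, which had 1 to 7.9 counts per library, and since it is not given whether strand was used in counting, reads of these genes may not be told apart.

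Casp1 encodes caspase 1, the protease at the centre of the pathway. Libraries numbered 2 had 222 CPM in Ly6Clo with IL-21, 194 CPM in Ly6Clo without it, 277 CPM in Ly6Chi with IL-21 and 160 CPM in Ly6Chi without it. Those numbered 1 had 126, 148, 137 and 125 CPM in the same groups. Every library numbered 2 was thus above every library numbered 1. The averaged IL-21 effect was 0.27 (SE 0.25, interval -0.27 to 0.81), and Ly6Clo against Ly6Chi was 0.04 (SE 0.25, interval -0.49 to 0.58), neither of which passed.

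Casp4 lies next to Casp1 on chromosome 9. Within Ly6Clo it had 103 CPM (number 2) and 86.3 CPM (number 1) with IL-21, against 79.8 CPM (number 2) and 34.0 CPM (number 1) without it. The Ly6Chi libraries had 127 and 109 CPM with IL-21, and 111 and 74.6 CPM without it. The averaged log2 fold change for IL-21 of 0.50 (SE 0.27, interval -0.07 to 1.08) did not pass (edgeR adjusted p 1.0, with 0.171% of genes passing). No run of 50 bases from the last 600 bases of a Casp1 or Casp4 transcript was found in another gene.

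Gsdmd encodes gasdermin D, the pore former. It had 71.5 to 95.4 CPM in the 4 Ly6Clo libraries and 98.1 to 118 CPM in the 4 Ly6Chi libraries, which did not overlap. The size was small, with a log2 fold change of -0.36 (SE 0.22, interval -0.83 to 0.11, edgeR adjusted p 0.723), and it did not pass. With IL-21 against without it, the averaged value was -0.03 (SE 0.22, interval -0.49 to 0.44).

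**Figure D2:**
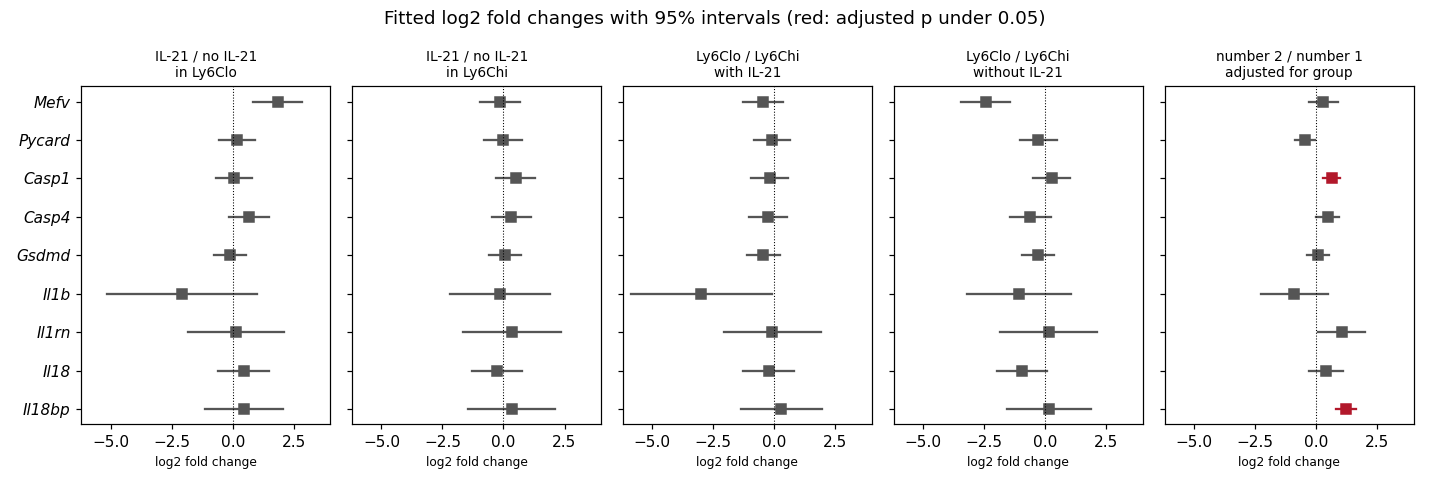
Fitted log2 fold change (horizontal axis) of the 9 genes tested in 5 comparisons, with squares for the estimate and lines for the 95% interval. Red marks an adjusted p under 0.05, which Casp1 (0.64) and Il18bp (1.22) reached between the replicate numbers, and the widest intervals are those of Il1b.

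Il1b encodes interleukin 1 beta, the cytokine that caspase 1 matures. The Ly6Clo libraries with IL-21 had 6.16 CPM (number 2) and 0 CPM (number 1), and those without it had 18.7 CPM (number 2) and 6.23 CPM (number 1). The Ly6Chi libraries numbered 2 had 4.96 CPM with IL-21 and 15.3 CPM without it, while those numbered 1 had 43.3 and 45.1 CPM. The highest values were therefore those of Ly6Chi number 1, under either condition. By subset and number, the difference of with IL-21 from without it was -0.97 to -0.05 on the log2 scale with 2 counts added. Averaged, the log2 fold change was -1.11 (SE 0.86, interval -2.95 to 0.74) and did not pass. It ranged between -2.57 and -0.63 with 1 library left out, with the lowest values without Ly6Clo with IL-21 number 2 (-2.57) and Ly6Chi with IL-21 number 1 (-2.28). The difference between the subsets given next ranged between -3.49 and -0.87.

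Between the subsets, the value of Il1b over both stimulations was -2.03 (SE 0.84, interval -3.83 to -0.23; unadjusted p 0.0299, edgeR adjusted p 0.548). Il1b passed the filter on low counts only through the Ly6Chi libraries numbered 1 (11.5 counts with IL-21 and 11 without it). Elsewhere it had 8.5 counts or fewer. The filter thus admitted it through libraries where it was high, so this p is no support for a difference between the subsets. By number the picture differed, since Ly6Clo minus Ly6Chi was 0.14 with IL-21 and 0.21 without it among libraries numbered 2, and -2.87 and -1.99 among those numbered 1. Neutrophils are another source of Il1b, and the neutrophil markers summed to 641 to 1262 CPM in Ly6Clo and 1403 to 2335 CPM in Ly6Chi, but overlapped without Mmp8 (66.4 to 137 CPM in Ly6Clo and 113 to 183 CPM in Ly6Chi). Their part was not tested. Il1b shares 25 exon bases with the antisense gene Il1bos, which was at 0 counts in all 8 libraries.

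Il1rn encodes the interleukin 1 receptor antagonist, which occupies the receptor without signalling. Among libraries numbered 2 it had 1336 CPM in Ly6Clo with IL-21, 1074 CPM in Ly6Clo without it, 1115 CPM in Ly6Chi with IL-21 and 728 CPM in Ly6Chi without it. Those numbered 1 had 312, 440, 661 and 651 CPM in the same groups. The numbers did not overlap, and the gap was widest in Ly6Clo. In Ly6Clo minus Ly6Chi the sign depended on the number, at 0.26 with IL-21 and 0.56 without it among libraries numbered 2, and at -1.07 and -0.56 among those numbered 1. Over both numbers Ly6Clo against Ly6Chi was 0.03 (SE 0.55, interval -1.37 to 1.44) and the averaged IL-21 effect was 0.24 (SE 0.55, interval -1.17 to 1.65). Il1rn was the best covered gene of the 10, yet these intervals were among the widest. With the replicate number added to the fit, the averaged IL-21 effect was 0.18 (SE 0.34, interval -0.77 to 1.13).

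Il18 encodes interleukin 18, the other cytokine that caspase 1 matures. It had 16.6 to 39.4 CPM in Ly6Clo and 39.7 to 55.6 CPM in Ly6Chi, which did not overlap, with the nearest libraries of the subsets at 39.4 and 39.7 CPM. Its log2 fold change of Ly6Clo over Ly6Chi was -0.59 (SE 0.34, interval -1.32 to 0.14) averaged and -0.95 (SE 0.48) without IL-21, neither of which passed, and the averaged IL-21 effect was 0.09 (SE 0.34, interval -0.64 to 0.81). Il18 passed the filter on low counts, which allows for library totals, only through Ly6Chi libraries. Its values between the subsets are therefore no support for a difference between them.

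Il18bp encodes the secreted protein that binds interleukin 18 and keeps it from its receptor. The libraries numbered 2 had 218 CPM in Ly6Clo with IL-21, 174 CPM in Ly6Clo without it, 233 CPM in Ly6Chi with IL-21 and 154 CPM in Ly6Chi without it. The libraries numbered 1 had 123, 70.6, 63.4 and 74.1 CPM in the same groups. Again all 4 libraries numbered 2 lay above all 4 numbered 1. The averaged IL-21 effect was 0.39 (SE 0.50, interval -0.81 to 1.59) and Ly6Clo against Ly6Chi was 0.23 (SE 0.50, interval -0.96 to 1.43), and neither passed. With the replicate number added to the fit, the averaged IL-21 effect was 0.41 (SE 0.19, interval 0.01 to 0.81). It did not pass there either (edgeR adjusted p 0.508). Il18bp shares 80 exon bases with Numa1 on the opposite strand, which had 6.4 to 23.2 counts per library, so its counts are uncertain if strand was not used.

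Taking the genes as a list, 0 of the 9 tested passed for IL-21 in Ly6Clo, in Ly6Chi, averaged or in the difference of the responses by edgeR. DESeq2 called 0 of them as well, with 0.114%, 0.019%, 0.152% and 0% of all genes called as higher in those comparisons. By edgeR an unadjusted p under 0.05 was reached by Mefv in Ly6Clo, averaged and in the difference. The median log2 fold change for IL-21 averaged was 0.24 over the 9, of which 7 were above 0, against -0.01 over all 5256 genes, of which 2568 were above 0. For Ly6Clo against Ly6Chi averaged over stimulation, 0 of 9 passed, against 0.19% of all genes. There the median was -0.36 over the 9, with 3 above 0, against 0.00 over all genes, with 2650 above 0. Mefv, Gsdmd and Il18 were lower in every Ly6Clo than in every Ly6Chi library, which 2.74% of the genes tested were. Il1b and Il18 passed the filter on low counts only through Ly6Chi libraries. Their part in that median and the lack of overlap of Il18 are therefore no support for a difference between the subsets.

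The replicate numbers were compared in a fit that adds the number to the group means. With all libraries and the filter on low counts, 2 of the 9 genes tested passed there by edgeR. Il18bp was higher in the libraries numbered 2, at 195 ± 36.8 CPM against 82.8 ± 27.3 CPM in those numbered 1 (SD, n = 4 each). Its log2 fold change, adjusted for group, was 1.22 (SE 0.20, interval 0.81 to 1.62, edgeR adjusted p 0.000131). Casp1 was higher as well, at 214 ± 49.5 CPM in libraries numbered 2 and 134 ± 10.7 CPM in those numbered 1, by 0.64 (SE 0.17, interval 0.28 to 1.0, edgeR adjusted p 0.0206). These 2 of the 9 tested passed as higher, against 4.6% of all genes, and 0 passed as lower, against 3.6%. In either direction 8.2% of all genes passed.

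Of the remaining genes tested, Il1rn had the largest fold, with 1063 ± 251 CPM in libraries numbered 2 and 516 ± 170 CPM in those numbered 1. Its log2 fold change of 1.06 (SE 0.35, interval 0.09 to 2.03) did not pass (edgeR adjusted p 0.201), and within groups it spanned 0.16 in Ly6Chi without IL-21 to 2.08 in Ly6Clo with IL-21. Casp4 (0.49, SE 0.23) and Pycard (-0.44, SE 0.20) did not pass either, with edgeR adjusted p values of 0.217 and 0.200. Casp1, Il1rn and Il18bp were without overlap and higher in number 2, which 5.96% of the genes tested were. Nlrp3, which was not among the genes tested, was without overlap in CPM (though not in counts) and lower, as were 5.1% of the genes tested.

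The firmness of these values differed. Leaving out either library of a group takes that group out of the number difference. The 8 fits with 1 library left out therefore repeat in pairs. In them the log2 fold change of Il18bp was 1.02 to 1.41. With all libraries Il18bp passed by DESeq2, which called 1.66% of all genes as higher. Casp1 was at 0.72 and 0.73 in the fits without a Ly6Chi library without IL-21. With all libraries it did not pass by DESeq2 (adjusted p 0.326). The call of Casp1 ended without either library of Ly6Clo with IL-21 (0.58 and 0.59), of Ly6Clo without IL-21 (0.74 each) or of Ly6Chi with IL-21 (0.50 and 0.51). Il1rn was at 1.35 and 1.36 without either library of Ly6Chi without IL-21. It was at 0.72 and 0.74 without either library of Ly6Clo with IL-21.

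Some marker genes moved with the number. Summed macrophage markers were 7414 to 7786 CPM in the libraries numbered 2 and 8870 to 11943 CPM in those numbered 1. That gap came mainly from Lyz2 (2489 to 3446 CPM in number 2 and 4238 to 6773 CPM in number 1). Csf1r lay the same way, at 554 to 684 CPM in number 2 and 808 to 1146 CPM in number 1. Without Lyz2 the sums overlapped, at 4229 to 5032 CPM in number 2 and 4372 to 5170 CPM in number 1, and Fcgr1 lay the other way, at 709 to 1048 CPM in number 2 and 501 to 653 CPM in number 1. The endothelial list summed to 189 to 338 CPM in number 2 and 56.1 to 137 CPM in number 1, almost all of it from Kdr, with Tie1 at 0 throughout and Pecam1 and Cdh5 at 2 counts or fewer. Deposited totals overlapped, at 224329 to 483593 counts in number 2 and 257385 to 287131 in number 1. In Ly6Clo, however, number 2 was the deeper, at 444670 against 269064 counts with IL-21 and 483593 against 257385 without it. In Ly6Chi number 2 had 224329 against 287131 counts with IL-21 and 284174 against 261205 without it. The part of these genes and totals in the values was not tested, and the labels do not say what the number stands for.

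**Figure D3:**
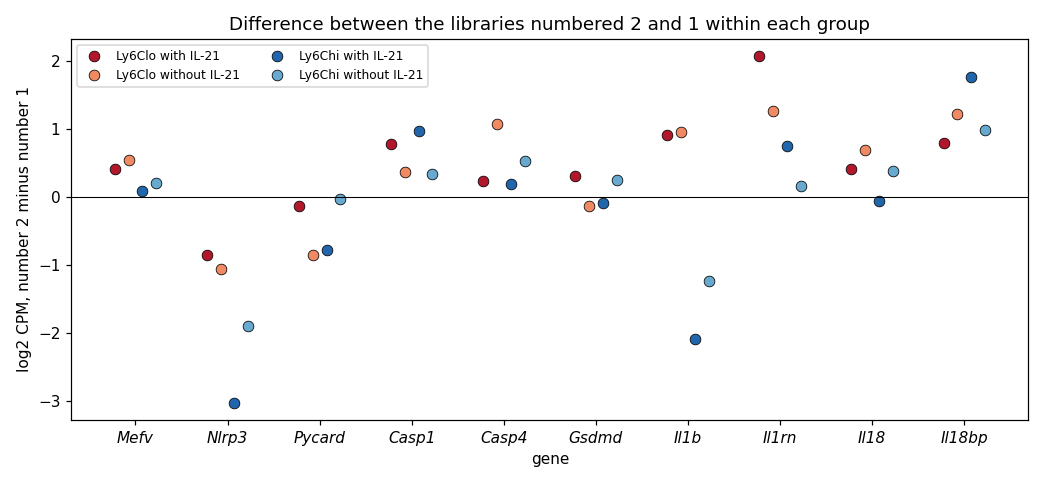
Difference in log2 CPM (vertical axis, 2 counts added), library numbered 2 minus library numbered 1, for each gene and each of the 4 groups. Il18bp (0.79 to 1.77), Casp1 (0.34 to 0.98), Il1rn (0.16 to 2.08), Casp4 and Mefv are above 0 in all 4 groups, Nlrp3 (-3.02 to -0.84) and Pycard are below 0 in all 4, and Il1b is above 0 in Ly6Clo and below 0 in Ly6Chi.

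The wider pathway was read from a list of 40 further genes, of which 18 were tested. Of 9 further sensors only Aim2 and Naip2 had enough counts to be tested, and Nlrp1a, Nlrp12, Il1rl1 and Il18rap were at 0 in all 8 libraries. For IL-21 in Ly6Clo, 0 of the 18 passed, and the smallest p values belonged to Myd88, the adaptor of interleukin 1 and Toll-like receptors (0.72, SE 0.27), the kinase Irak2 (-0.99, SE 0.45), Txnip, which binds NLRP3 (-0.46, SE 0.33), and Casp8 (0.27, SE 0.26). In Ly6Chi 0 of 18 passed, and small p values belonged to Irak3, an inhibitory member of the kinase family (0.67, SE 0.47), Casp8 (0.35, SE 0.26) and Txnip (-0.46, SE 0.35). Averaged, 10 of 18 were above 0 and 0 passed, with Myd88 at 0.45 (SE 0.19), Txnip at -0.46 (SE 0.24), Irak2 at -0.62 (SE 0.33) and Casp8 at 0.31 (SE 0.19). In the difference of the responses, small p values belonged to Irak3 (-1.14, SE 0.68), Myd88 (0.55, SE 0.39) and Irak2 (-0.74, SE 0.65), and 0 passed.

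Between the subsets, too, none of the 18 passed by edgeR. Casp8, the initiator caspase that can also cut interleukin 1 beta, was at -0.59 (SE 0.19) in Ly6Clo against Ly6Chi averaged over stimulation (unadjusted p 0.00661, edgeR adjusted p 0.381). Next came Tollip, which restrains interleukin 1 receptor signalling (0.73, SE 0.31), Myd88 (-0.45, SE 0.19) and Irak3 (-0.71, SE 0.34). Only 2 of the 18 were above 0 there, against 2650 of 5256 genes. With IL-21 the order was Irak3 (-1.28, SE 0.48), Tollip (1.07, SE 0.44), Casp8 (-0.63, SE 0.26) and Irak4 (-0.62, SE 0.41). Without IL-21, small p values belonged to Myd88 (-0.72, SE 0.28), Casp8 (-0.55, SE 0.26) and Ninj1, which ruptures the membrane of dying cells (-0.41, SE 0.29).

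Between the numbers, 2 of the 18 passed, both higher in libraries numbered 2, against 4.6% of all genes passing as higher and 8.2% in either direction. Casp8 was at 0.44 (SE 0.11, edgeR adjusted p 0.0111) and Pstpip1, a binding partner of pyrin, at 0.95 (SE 0.25, edgeR adjusted p 0.0173). Nek7, which binds NLRP3 (-0.69, SE 0.23), and Naip2, a receptor for a protein of bacterial secretion systems (0.86, SE 0.31), followed and did not pass.

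Genes with the most similar profile over the 8 libraries were sought among 2922 tested genes with a mean of at least 20 counts, by Pearson's r of log2 CPM with Spearman's rho beside it. For Mefv these were Rbm5 (r 0.96, rho 0.79), Cxcl3 (0.96, 0.79) and Zyx (0.95, 0.76). For Il18bp they were Tmem140 (0.98, 0.95), Pxk (0.98, 0.93) and Cyren (0.97, 0.95), and for Casp1 Agfg1 (0.97, 0.98), Taf6l (0.96, 0.93) and Zc3hav1 (0.94, 0.83). For Casp4 they were Sppl2a (0.98, 0.90), Slfn2 (0.95, 0.76) and Sirpb1a (0.95, 0.90), for Il1rn Ikbkg (0.98, 0.90), Prdx1 (0.97, 0.95) and Psmb5 (0.95, 0.90), and for Il1b Clec4e (0.95, 0.88), Tnfrsf1b (0.91, 0.90) and Ccdc50 (0.90, 0.88). Pycard was closest to Ndufa8 (0.96, 0.81), Lamp1 (0.94, 0.86) and Smarcd2 (0.93, 0.90), Gsdmd to Atad2b (0.94, 0.98), Kmt2e (0.94, 0.88) and Wbp2 (0.93, 0.93), and Il18 to Gnb2 (0.96, 0.81), Pnp (0.94, 0.95) and Nfatc3 (0.94, 0.81). With 8 libraries and this many genes searched, values this high are a description of these libraries, which share their number, subset and depth.

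The genes lie on 6 chromosomes by GENCODE M21 on GRCm38, the assembly that mm10 names. Mefv (ENSMUSG00000022534) is on chromosome 16 at 3707218 to 3718097, minus strand, and Nlrp3 (ENSMUSG00000032691) on chromosome 11 at 59541568 to 59566956, plus strand. Chromosome 9 holds Casp1 (ENSMUSG00000025888, 5298517 to 5307265), Casp4 (ENSMUSG00000033538, 5308828 to 5336783) and Il18 (ENSMUSG00000039217, 50554827 to 50581840), all on the plus strand. Chromosome 7 holds Pycard (ENSMUSG00000030793, 127989708 to 127993867) and Il18bp (ENSMUSG00000070427, 102014885 to 102018690) on the minus strand. Chromosome 2 holds Il1b (ENSMUSG00000027398, 129364570 to 129371139, minus strand) and Il1rn (ENSMUSG00000026981, 24336853 to 24351494, plus strand), and Gsdmd (ENSMUSG00000022575) is on chromosome 15 at 75862327 to 75867408, plus strand.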

How the data were processed

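RNA of 8 libraries was made with a QuantSeq 3' kit and its module for unique molecular identifiers, per the labels' protocols. The authors deposited expected counts per Ensembl gene, which the file headers call raw. Of the 78 values above 0 for the 10 genes, 53 were not whole at a tolerance of 0.001, and values were rounded before the tests although whole counts had been assumed in the design. The submitters' processing notes name mm10 and DESeq2. Which aligner, counter and annotation made them is not given in the sources used here. Nor is any use of identifiers or strand, so floors from counts cover counting error only. The intervals come from the fits, which estimate the spread among libraries.

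Symbols came from GENCODE M21, which matched 53237 of 53342 identifiers. filterByExpr (minimum count 10, minimum total 15) kept 5256 genes, and TMM and edgeR 4.0.16 (R 4.3.3, limma 3.58.1) fitted 4 group means with robust quasi-likelihood F tests, with 4 residual degrees of freedom and a common coefficient of variation of 0.201. The replicate number was compared in a fit that adds it to the group means. P values were adjusted by Benjamini-Hochberg over every gene in a fit and called at 0.05. SE is the log2 fold change divided by the square root of F, and intervals are at 95%. Per-number differences use log2 CPM with a prior count of 2. DESeq2 1.42.0, other scaling, filters, unrounded values, a replicate block and leaving out libraries were alternatives. The fit was tested on simulated counts that held no difference between the replicate numbers, so that test does not cover such a difference.

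The members and lists were chosen with earlier results of these data known. Named are all 10 genes, the 4 pathway genes with the smallest p in each comparison with any that passed (1 of these genes is not reported here), the 3 most alike genes, and Socs3 as a check.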

Additional observations from a re-analysis of the deposited data

How the results depend on the processing

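With 1 library left out at a time, the number of the 10 genes called stayed at 0 in all 7 comparisons of stimulation and subset, and was 1 to 3 between the replicate numbers, where it was 2 with all libraries. Nlrp3 entered 7 of these 8 fits, because the filter then asks for fewer libraries. DESeq2 called 1 gene between the numbers. With no filter on low counts 1 gene, Mefv, was called for Ly6Clo against Ly6Chi without IL-21 and averaged. Neither DESeq2 size factors nor unrounded values changed these counts, and a minimum mean of 20 counts, which left out Mefv, Il1b and Il18, did not either. With the replicate block, 1 gene, Mefv, was called in Ly6Clo against Ly6Chi without IL-21 (-2.47, SE 0.46, edgeR adjusted p 0.00543) and averaged (-1.48, SE 0.30, edgeR adjusted p 0.00426), while its IL-21 effect in Ly6Clo did not pass (edgeR adjusted p 0.0940). Differences between numbers correlated across genes at 0.24 to 0.42 between groups. The numbers come with no stated pairing, so this block is only a hint from the data. Over all genes, calls with the block and without it were 29 and 7 for IL-21 in Ly6Clo, 14 and 1 in Ly6Chi, 60 and 9 averaged, 31 and 2 for Ly6Clo against Ly6Chi without IL-21, 41 and 1 with it, 132 and 10 averaged, and 1 and 0 for the difference of responses. Without a filter these were 16, 8, 35, 16, 22, 58 and 1, with the minimum mean of 20 counts they were 2, 1, 8, 1, 0, 7 and 0, and unrounded values gave 3 for IL-21 in Ly6Clo. With 1 library left out, whose partner is then assumed to vary like the other groups, they were 0 to 7, 0 to 3, 5 to 15, 0 to 3, 0 to 2, 3 to 22 and 0, and between the numbers 177 to 419, against 431 with all libraries and 131 by DESeq2. Of the single-gene values under alternatives, 64 changed sign, and in none of these was the value called before or after. At 224329 to 483593 counts per library the depth limits Il1b, Nlrp3, Il18 and Mefv most. The cause of these changes was not tested.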
